A study of Sus scrofa with 2 samples.

Results

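Globin RNA was followed through single-cell libraries of pig skin by 3 genes, HBB, HBM and ENSSSCG00000007978, out of 31908 genes listed in the deposited matrices. These genes were chosen by measured values, because they lead the RNA of a few barcodes with very high globin content, and a barcode was set aside when more than 10% of its UMIs (unique molecular identifiers, each standing for 1 captured transcript) fell on them. What was left was counted per barcode and per cell class as a measure of globin RNA outside red blood cells. The cells came from full-thickness dorsal skin of male farm pigs, cleared of subcutaneous fat, dissociated with a whole skin kit and freed of dead cells by FACS before droplet capture with a 10x Genomics 3′ kit from an input of about 8000 cells. The fresh library carried no treatment, and the cryopreserved library (labelled frozen) was made from cells kept in liquid nitrogen in 90% FBS + 10% DMSO. Age and strain are not given in the labels, it is not stated if 1 animal gave both libraries, and the extraction text given for both samples describes freezing, so the titles and treatment labels set the groups. With 1 library per condition no test between conditions was possible, and every interval below is an exact 95% interval that covers counting error only.

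Hemoglobin carries oxygen in red blood cells as a tetramer of alpha-type and beta-type globin chains, each holding a heme group. Beta-type genes (HBB, and HBE1 in the embryo) and alpha-type genes (alpha, HBM, HBQ1 and the embryonic HBZ) lie in separate clusters on different chromosomes. Mature mammalian red cells have no nucleus and keep a small set of RNAs led by globin, whereas keratinocytes, fibroblasts and immune cells of skin are not known as major globin producers, and in droplet data globin UMIs in such cells are commonly read as RNA that was free in the suspension.

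HBB (hemoglobin subunit beta) lies on chromosome 9 of Sscrofa11.1, from 4800683 to 4801941 on the minus strand, with 3 exons in the RefSeq annotation. HBM (hemoglobin subunit mu) lies on chromosome 3, from 41489312 to 41490110, also on the minus strand and with 3 exons, and 19 of its 799 bases overlap exons of NPRL3, a gene of the opposite strand. The third gene is listed by its Ensembl identifier alone, and the reference tables used here pair it with no symbol. RefSeq places 2 alpha loci beside HBM on the same strand of chromosome 3, LOC110259958 (hemoglobin subunit alpha, 41482353 to 41483564) and LOC100737768 (hemoglobin subunit alpha-like, 41486699 to 41487559). ENSSSCG00000007978 was matched to neither of them, so it is called by its identifier throughout.

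The last coding exon, 129 bases in each gene, is shown because a 3′ kit reads transcripts near their end, so this stretch and what follows it decide how far globin reads can be told apart. The sequences are from RefSeq, Sscrofa11.1, 5′ to 3′ on the coding strand, and capitals mark bases that differ from LOC110259958.
LOC110259958 (chr3:41482470-41482598, minus strand): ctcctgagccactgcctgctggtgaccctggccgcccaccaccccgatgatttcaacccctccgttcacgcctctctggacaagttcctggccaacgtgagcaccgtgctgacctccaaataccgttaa
HBM (chr3:41489385-41489513, minus strand): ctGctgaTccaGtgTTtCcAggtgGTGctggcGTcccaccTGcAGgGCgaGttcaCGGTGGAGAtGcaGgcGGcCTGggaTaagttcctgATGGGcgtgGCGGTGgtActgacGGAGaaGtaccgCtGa
HBB (chr9:4800683-4800811, minus strand): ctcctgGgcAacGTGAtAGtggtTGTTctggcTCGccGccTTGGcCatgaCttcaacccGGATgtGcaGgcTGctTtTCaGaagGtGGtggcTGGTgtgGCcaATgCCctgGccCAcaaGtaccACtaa
HBM differed from the alpha locus at 55 of these bases and HBB at 53, an identity of 57.4% and 58.9%. Other globin genes were nearer over this exon. HBQ1 shared 75.2% and HBZ 69.0% of bases with the alpha locus, and HBE1 shared 82.2% with HBB. LOC100737768 (41486816 to 41486944 for the same exon) was identical to LOC110259958 at all 129 bases. Over the whole coding sequence of 429 bases the alpha loci had 0 differences, and they had 0 over the 117 bases annotated after the stop codon. Reads from these stretches therefore fit both alpha loci equally well, and how the authors' counting divided or dropped them was not tested. The mapping was the same for every barcode, so the comparisons between barcodes below share it.

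The fresh matrix held 4379 barcodes and 53271738 UMIs and the cryopreserved matrix 4860 barcodes and 42217632 UMIs, with 6 barcode sequences present in both. Clustering of all barcodes, with the 3 globin genes left out of the variable genes, gave 25 clusters, of which 19 were named from marker genes as 10 classes and 6 stayed unnamed. The unnamed clusters held 1044 fresh and 523 cryopreserved barcodes. No cluster was named from erythroid markers.

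In the fresh library 2 barcodes lay above the 10% limit, and in the cryopreserved library 0 of 4860 did, which allows a share of up to 0.0617%. The first held 9771 UMIs from 115 genes, with 5482 UMIs of HBB, 3897 of ENSSSCG00000007978 and 63 of HBM. The second held 6280 UMIs from 80 genes, with 3617, 2405 and 20 UMIs of the same genes. Globin made up 96.6% and 96.2% of their UMIs, and mitochondrial genes 0.0205% and 0%. Just below the limit, the highest fresh barcodes reached 1.22% and 1.13% and the highest cryopreserved barcode 0.829%, so no barcode lay between 1.22% and 96.2%. The highest barcodes below the limit, 4 fresh and 6 cryopreserved, were of another kind, with 504 to 1086 UMIs each and 69.4% to 80.9% of them mitochondrial. Both barcodes above the limit lie within the maxima of 4500 genes, 30000 UMIs and 10% mitochondrial UMIs that the study set for cells, and both were placed in the unnamed mitochondrial cluster.

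**Figure D1:**
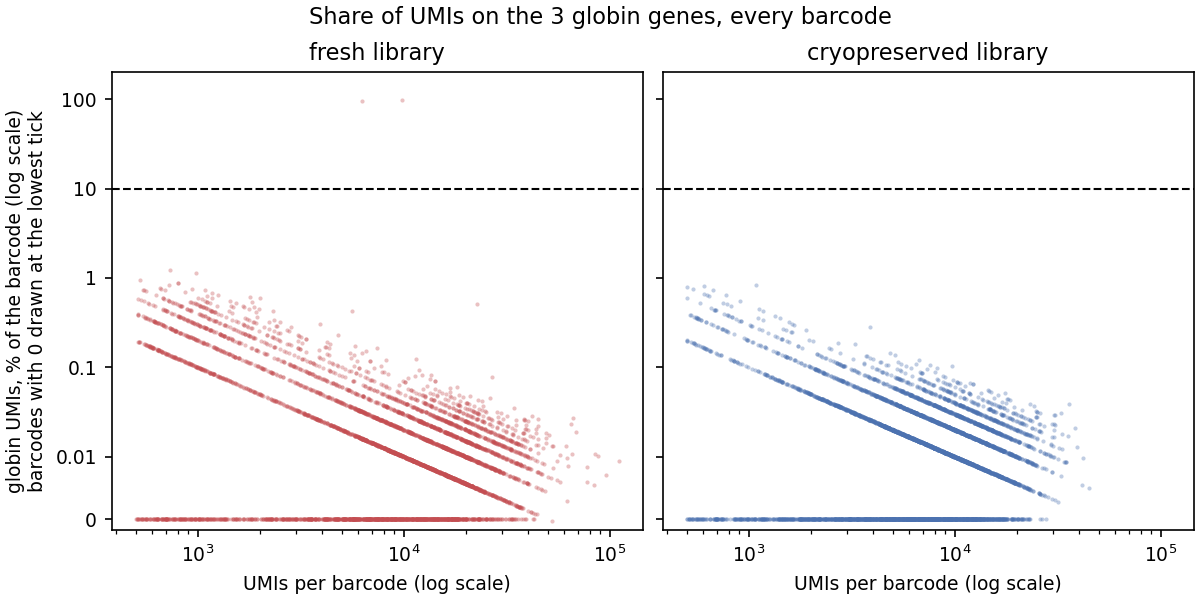
Share of the UMIs of each barcode on the 3 globin genes (vertical axis, percent, log scale, barcodes with none at the lowest tick) against its total UMIs (log scale), for the fresh (left) and cryopreserved (right) library. The dashed line is the 10% limit; 2 fresh barcodes stand at 96.6% and 96.2%, and every other point is at or below 1.22%.

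Erythroid genes were among the few others in these barcodes. AHSP, the chaperone of free alpha chains, had 37 UMIs there and 1 in all other fresh barcodes together. ALAS2, the erythroid enzyme that starts heme synthesis, had 32 UMIs there and 1 elsewhere in the fresh library. Of 33 erythroid genes in a list of surface, cytoskeletal and transcription factor genes, 29 are listed in the matrices and 5 had a UMI in these barcodes (AHSP, ALAS2, BNIP3L with 5, SLC4A1 with 1 and GYPC with 1). SLC25A37, a mitochondrial iron carrier, had 0 UMIs in them and 1311 in the other fresh barcodes. Of 10 listed genes of hemoglobin and heme clearance only FTL, the ferritin light chain, had a UMI there, with 61 UMIs. FTL was also the only gene beside the globins with at least 50 UMIs in these barcodes, at 3.15 times its CPM (UMIs scaled to a common library total) in all other barcodes of both libraries. Platelet genes (6 of 7 listed) and neutrophil genes (6 of 9 listed) had 0 UMIs in them.

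These 2 barcodes held unequal shares of the library's globin RNA. They held 9099 of 17926 fresh HBB UMIs (50.8%), 83 of 88 HBM UMIs (94.3%) and 6302 of 6475 ENSSSCG00000007978 UMIs (97.3%). Below the limit, 8827 UMIs of HBB, 5 of HBM and 173 of ENSSSCG00000007978 were left in 4377 fresh barcodes, and 6956, 8 and 190 in 4860 cryopreserved barcodes. Of the 3 genes HBB was by far the most abundant there, with 2.02 UMIs per fresh barcode (interval 1.97 to 2.06) and 1.43 per cryopreserved barcode (1.40 to 1.47). ENSSSCG00000007978 stood at 0.0395 (0.0339 to 0.0459) and 0.0391 (0.0337 to 0.0451) UMIs per barcode. HBM was seen at single UMIs in 5 fresh and 8 cryopreserved barcodes.

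HBB was spread over most barcodes, though less evenly than counts drawn at 1 common rate. At least 1 HBB UMI was found in 73.5% of fresh (72.1 to 74.8%) and 66.8% of cryopreserved barcodes (65.4 to 68.1%). A common Poisson rate would leave 13.3% and 23.9% of barcodes without HBB, and 26.5% and 33.2% had none. The variance of HBB counts was 3.63 times the mean in fresh and 1.65 times in cryopreserved barcodes. The fresh library held 1 epidermal stem-like barcode of a dividing cluster (led by UBE2C, CDC20 and CCNB1) with 114 HBB UMIs among 22653 UMIs in all, 2 UMIs of ENSSSCG00000007978 and 0 of HBM. Without it the variance was 2.24 times the mean. The highest HBB count in the cryopreserved library was 13.

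The ratio between the globin genes differed between barcodes above and below the limit. In the 2 barcodes above the limit there were 0.693 UMIs of ENSSSCG00000007978 per UMI of HBB (0.671 to 0.715), at 0.711 in the first and 0.665 in the second. Below the limit the ratio was 0.0196 (0.0168 to 0.0228) in fresh and 0.0273 (0.0235 to 0.0316) in cryopreserved barcodes, 35.3 and 25.4 times lower. The 2 barcodes above the limit were fresh ones, so the cryopreserved library had no such ratio of its own. The source of the HBB counted below the limit was not tested.

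**Figure D2:**
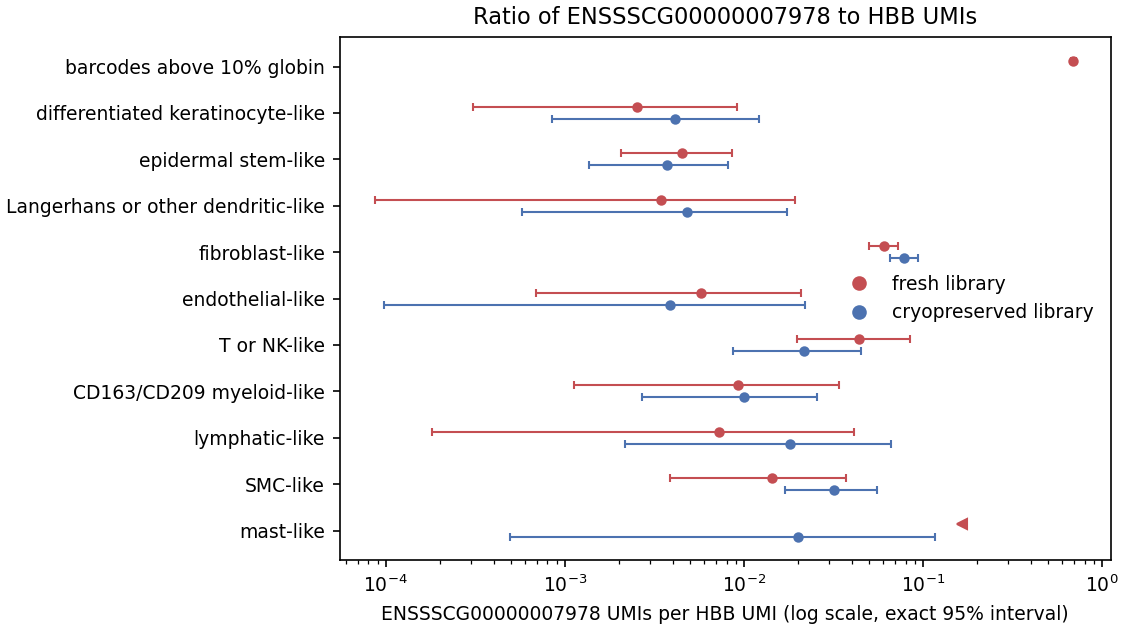
UMIs of ENSSSCG00000007978 per UMI of HBB (log scale) in the fresh barcodes above the 10% limit (top) and in each cell class below it, with exact 95% intervals; the triangle marks the upper bound in fresh mast-like barcodes, which had 0 UMIs of ENSSSCG00000007978. The barcodes above the limit stand at 0.693, fibroblast-like cells at 0.0605 (fresh) and 0.0783 (cryopreserved), and keratinocyte classes at 0.00254 to 0.00449.

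HBB differed between cell classes, and keratinocytes had the highest levels. In the fresh library it stood at 3.52 UMIs per barcode in differentiated keratinocyte-like cells (3.28 to 3.77, n = 224 barcodes). Epidermal stem-like cells had 3.43 (3.28 to 3.59, n = 584), with 114 of their 2005 HBB UMIs in 1 barcode. Without that barcode their globin UMIs per barcode were 0.945 times as high, a move beyond counting error. Langerhans or other dendritic-like cells, a class of antigen-presenting cells with CD207, FLT3 and CCR7, followed with 2.33 (2.07 to 2.61). Then came fibroblast-like (1.45), endothelial-like (1.39), T or NK-like (1.31), CD163/CD209 myeloid-like (1.19), lymphatic-like (1.11) and SMC-like cells (1.03). Among these 6 classes, neighbours in the order could not be told apart, since each interval of their ratio held 1. Mast-like cells had the lowest level, 0.316 (0.202 to 0.470), 11.14 times below differentiated keratinocyte-like cells (7.43 to 17.5).

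The cryopreserved library ran in a similar order with a narrower range. Differentiated keratinocyte-like cells had 2.20 HBB UMIs per barcode, Langerhans or other dendritic-like cells 2.04 and epidermal stem-like cells 2.01. Neighbours among these 3 could not be told apart, and differentiated keratinocyte-like cells stood at 1.10 times epidermal stem-like cells (1.003 to 1.197). CD163/CD209 myeloid-like (1.30), T or NK-like (1.24), fibroblast-like (1.18), SMC-like (1.05), endothelial-like (0.834) and lymphatic-like cells (0.760) followed. In this order SMC-like cells were above endothelial-like (1.26 times, 1.08 to 1.48), and fibroblast-like stood at 1.12 times SMC-like cells (1.002 to 1.25). Bounds of 1.003 and 1.002 do not settle an order, since the intervals cover counting error only and the variance of HBB was 1.65 times its mean. Per 10000 UMIs of a class both orders were reversed. Differentiated keratinocyte-like cells had 1.70 and epidermal stem-like cells 1.92 HBB UMIs, and fibroblast-like cells 1.05 and SMC-like cells 2.04. Per barcode, mast-like cells were again lowest at 0.410, 5.37 times below the highest class (4.03 to 7.31). Keratinocyte classes together had 2.53 times the HBB of all other named classes in the fresh library (3.46 and 1.36 UMIs per barcode, interval of the ratio 2.41 to 2.66). For the cryopreserved library the ratio was 1.79 (2.07 and 1.15, interval 1.70 to 1.89). Across the 10 classes the coefficient of variation of HBB per barcode was 0.617 in fresh and 0.461 in cryopreserved barcodes, where the median over all genes compared was 0.805 and 0.782.

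**Figure D3:**
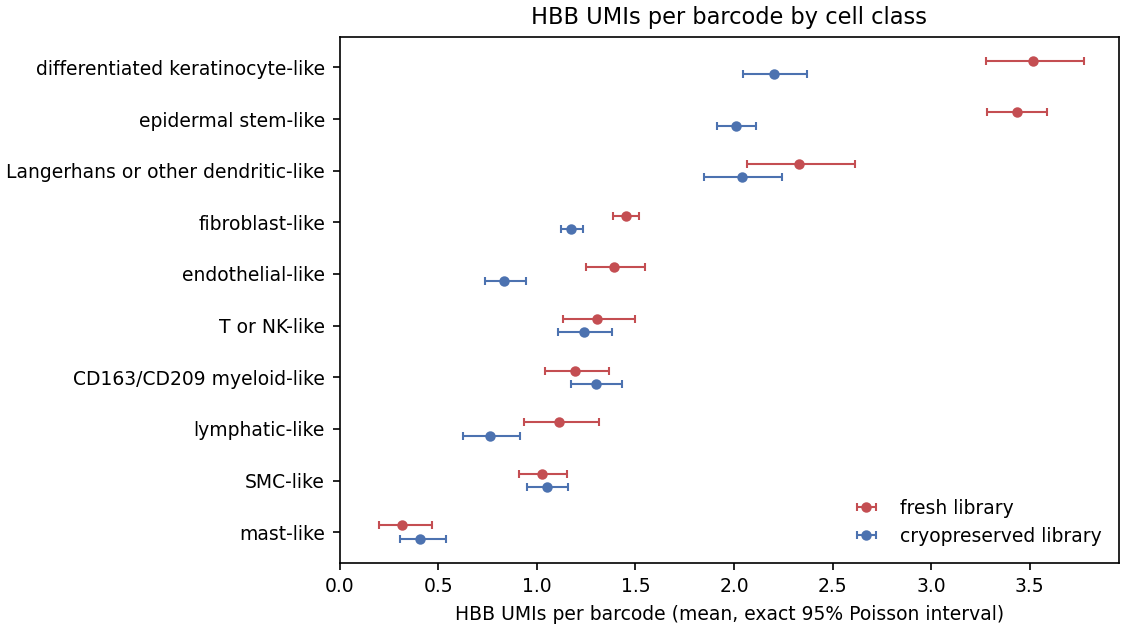
Mean HBB UMIs per barcode in each of the 10 named classes, with exact 95% Poisson intervals, for barcodes at or below the 10% limit of the fresh and cryopreserved library. Keratinocyte classes stand highest in the fresh library (3.52 and 3.43) and mast-like cells lowest in both (0.316 and 0.410).

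Part of this order moved with depth. Median UMIs per barcode ran from 2621.5 in mast-like to 20796.5 in differentiated keratinocyte-like cells of the fresh library. Per 10000 UMIs of a class, globin UMIs of the highest class were 2.16 times those of the lowest in the fresh library (1.95 in epidermal stem-like and 0.904 in mast-like cells). Cryopreserved cells gave a ratio of 2.06, between T or NK-like (2.32) and fibroblast-like cells (1.13), so that scale put other classes at the ends. Among barcodes with 8000 to 12000 UMIs, a window chosen after seeing the data, HBB stood at 2.60 UMIs per barcode in differentiated keratinocyte-like (1.70 to 3.81, n = 10 barcodes), 2.41 in epidermal stem-like and 1.05 in fibroblast-like cells of the fresh library. In the same window of the cryopreserved library it stood at 1.85, 2.04 and 1.01, and T or NK-like cells had the highest level, 2.26 (1.79 to 2.81, n = 35 barcodes). Keratinocyte classes thus had more HBB than fibroblast-like cells in this window of both libraries. Langerhans or other dendritic-like cells, at 2.08 and 2.03, had intervals that overlapped those of the keratinocyte classes. Fresh mast-like cells, lowest over all depths, stood at 0.875 (0.352 to 1.80, n = 8 barcodes), an interval that holds the levels of fibroblast-like and SMC-like cells (0.947).

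Over all barcodes HBB rose far less with depth than other genes did. From the lowest to the highest decile of fresh barcodes by UMIs, mean depth was 43.7 times higher, and HBB went from 1.71 to 3.44 UMIs per barcode, 2.01 times (1.84 to 2.20). The median gene rose 96.8 times, and 0.193% of 9847 genes rose less than HBB. In the cryopreserved library depth was 17.7 times higher, HBB went from 0.947 to 2.54 (2.68 times, 2.41 to 2.99), the median gene rose 19.4 times and 2.81% of 10572 genes rose less. HBB was not flat in between: the lowest fresh level was in the fifth decile, at 1.32, and the level in the second, 2.28, was above that of the lowest. ENSSSCG00000007978 rose from 0.00227 to 0.0959 UMIs per fresh barcode (42.2 times, from 1 UMI in the lowest decile, interval 7.17 to 1706) and from 0.0144 to 0.0658 in the cryopreserved library (4.57 times, 1.98 to 12.3).

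**Figure D4:**
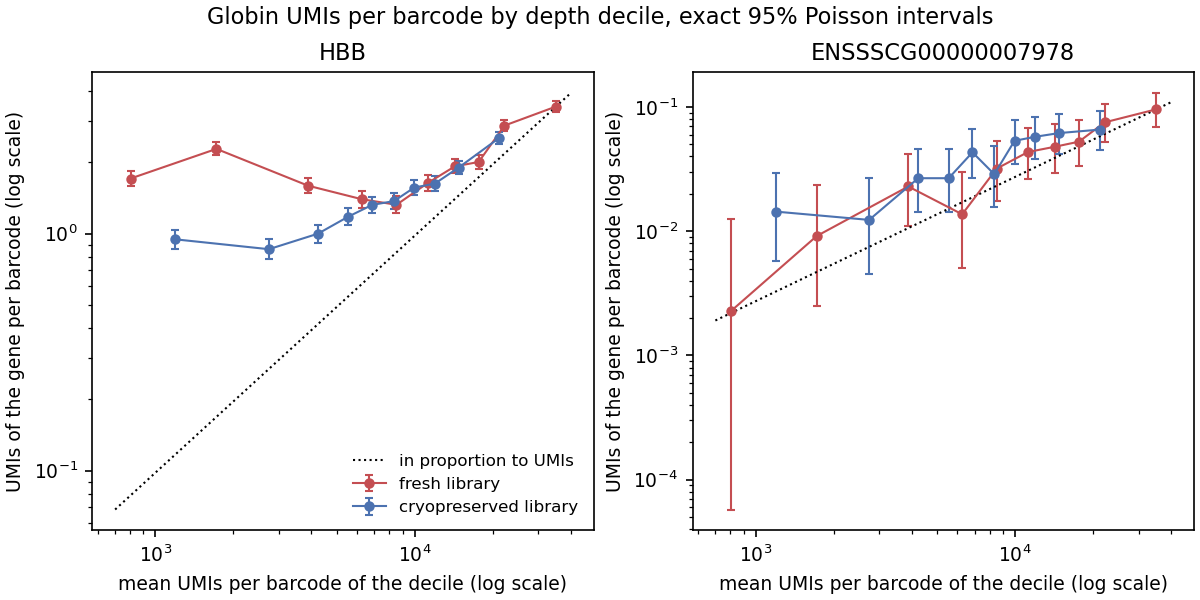
Mean UMIs of HBB (left) and ENSSSCG00000007978 (right) per barcode in deciles of the barcodes ordered by depth, against the mean UMIs of the decile (both axes log scale, exact 95% Poisson intervals). The dotted line is proportional to depth and passes through the deepest fresh decile; HBB lies above it at low depth, with 1.71 UMIs in the shallowest fresh and 0.947 in the shallowest cryopreserved barcodes.

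The shallow barcodes were rich in mitochondrial RNA, and HBB over all classes together moved with that share as well. The classes also differed in that share. Its median was 2.58% in fresh fibroblast-like and 4.57% in fresh epidermal stem-like cells, and 2.10% and 5.16% in the cryopreserved library. At 2 to 5% mitochondrial UMIs these classes had 1.63 and 3.65 HBB UMIs per fresh barcode, and 1.38 and 2.06 per cryopreserved barcode. The part of the class mix in the pooled levels that follow was not tested. In the fresh library HBB rose from 0.836 UMIs per barcode where at most 2% of UMIs were mitochondrial (n = 634) to 2.01 at 2 to 5%, 2.31 at 5 to 10% and 2.66 at 20 to 50%. ENSSSCG00000007978 went the other way, from 0.0757 at up to 2% to 0.0112 at 20 to 50%. In the cryopreserved library HBB stood at 0.870 up to 2% and between 1.45 and 1.89 in all higher ranges, and ENSSSCG00000007978 went from 0.0883 up to 2% to 0.0163 at 5 to 10% and 0.0362 at 10 to 20%. The unnamed mitochondrial cluster, with a median of 888 UMIs per fresh barcode of which 70.4% were mitochondrial, had 2.26 HBB UMIs per fresh and 1.53 per cryopreserved barcode. Another unnamed cluster with partial epidermal markers and a median of 2256 UMIs had 3.49 HBB UMIs per fresh barcode, close to the named keratinocyte classes. The dividing epidermal stem-like cluster reached 5.39 in fresh and 3.03 in cryopreserved barcodes, at median depths of 27261 and 15558 UMIs, and 4.35 in fresh barcodes without the barcode of 114 HBB UMIs. In contrast, a cluster of 20 cryopreserved barcodes with a median of 1808.5 UMIs and 0.0389% mitochondrial UMIs had 0 HBB UMIs, which allows up to 0.15 per barcode. The part of depth and mitochondrial share in the class levels was not tested beyond these windows.

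The share of barcodes with a globin UMI was taken both unthinned and at a common depth. Thinning lowers all genes of a barcode in proportion, so a fall in the shares is built in. The part of depth in the unthinned shares was not tested. Unthinned, 92.9% of fresh differentiated keratinocyte-like and 69.5% of fibroblast-like barcodes had at least 1 globin UMI, and 23.7% of mast-like barcodes did, at median depths of 20796.5, 14804 and 2621.5 UMIs. After each barcode was thinned to 1000 UMIs, which left out 365 fresh and 198 cryopreserved barcodes, the shares were 13.5%, 11.6% and 6.15%. The thinned cryopreserved shares were 16.1%, 11.4% and 18.4%, so mast-like cells were not lowest there. In the fresh library endothelial-like cells were highest at 21.2%. Only SMC-like (11.5%), fibroblast-like and mast-like cells lay below differentiated keratinocyte-like cells there. Cryopreserved Langerhans or other dendritic-like cells were highest at 24.3%, and only lymphatic-like (15.6%) and fibroblast-like cells lay below differentiated keratinocyte-like cells. In each library the intervals of all other named classes overlapped that of differentiated keratinocyte-like cells.

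ENSSSCG00000007978 had another pattern, with most of its UMIs in fibroblasts. Of its 173 fresh UMIs below the limit, 118 (68.2%) lay in fibroblast-like cells, which were 30.7% of those barcodes, and of 190 cryopreserved UMIs 135 (71.1%) did, in 30.2% of barcodes. That was 0.0878 UMIs per fibroblast-like barcode in fresh (0.0727 to 0.105) and 0.0920 in cryopreserved barcodes (0.0772 to 0.109). Other named classes together were 5.83 times lower in fresh (3.88 to 9.01) and 6.77 times lower in cryopreserved barcodes (4.71 to 9.94). T or NK-like cells came next in the fresh library with 0.0573 from 9 UMIs, an interval of 0.0262 to 0.109 that overlaps that of fibroblasts. In the cryopreserved library SMC-like cells came next, with 13 UMIs (0.0337), of which 6 lay in 1 barcode. Differentiated keratinocyte-like cells, highest in HBB, had 2 fresh and 3 cryopreserved UMIs of this gene, and fresh mast-like cells had 0 in 76 barcodes, which allows up to 0.0395 per barcode. Per barcode, both libraries therefore put HBB and ENSSSCG00000007978 highest in different classes. Per 10000 UMIs of a class, fresh T or NK-like cells had 0.0707 UMIs of ENSSSCG00000007978, above fibroblast-like cells at 0.0528. In the cryopreserved library fibroblast-like cells stayed highest on that scale at 0.0819, followed by SMC-like cells at 0.0655.

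**Figure D5:**
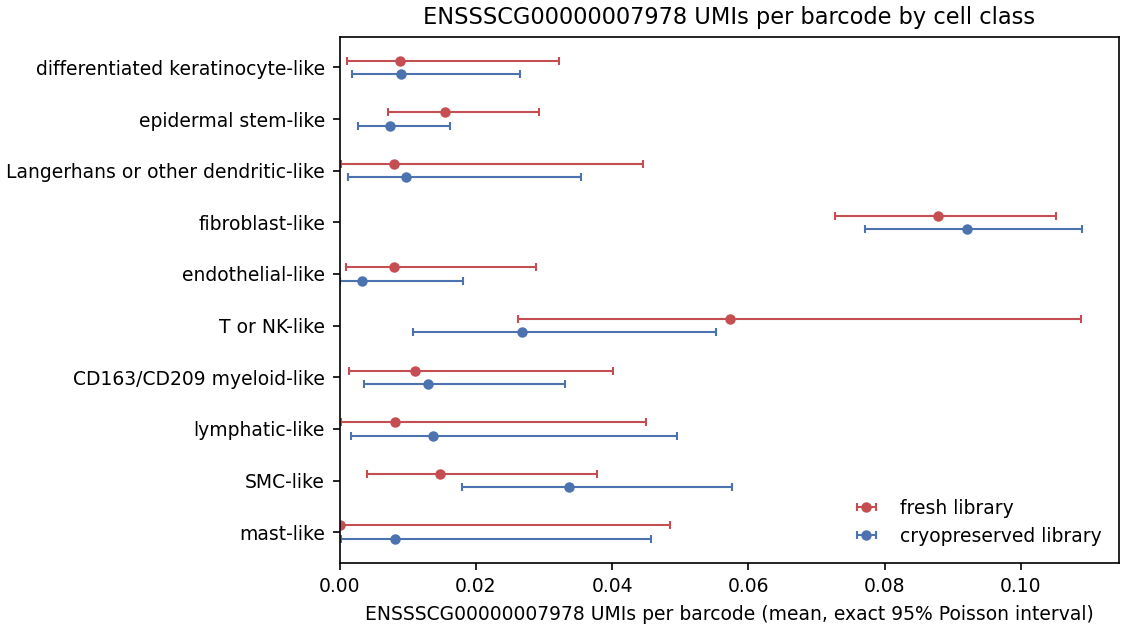
Mean UMIs of ENSSSCG00000007978 per barcode in each named class, in the same order as the plot of HBB, with exact 95% Poisson intervals. Fibroblast-like cells stand at 0.0878 (fresh) and 0.0920 (cryopreserved), and keratinocyte classes at or below 0.0154.

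Within fibroblasts the gene was found in every cluster. The 5 fibroblast-like clusters ranged from 0.0473 to 0.135 UMIs per barcode in the fresh and from 0.0517 to 0.115 in the cryopreserved library, and no fibroblast-like barcode held more than 5 fresh or 3 cryopreserved UMIs. Without the named fibroblast-like class, 55 UMIs of ENSSSCG00000007978 stood beside 6878 of HBB in the fresh library (0.00800 per HBB UMI, 0.00602 to 0.0104). The cryopreserved library had 55 beside 5232 (0.0105, 0.00791 to 0.0137). Unnamed clusters rich in COL1A1, COL1A2 and COL3A1 UMIs (432, 1265 and 1072 per fresh barcode) stayed in this remainder, which may thus hold fibroblasts. They had 12, 6 and 3 fresh and 9, 4 and 1 cryopreserved UMIs of ENSSSCG00000007978. In the fibroblast-like class its ratio to HBB was 0.0605 (0.0498 to 0.0729) and 0.0783 (0.0652 to 0.0933). The ratio of these genes thus also differed between classes of 1 library beyond counting error. Among 8000 to 12000 UMIs, fibroblast-like cells had 0.0636 (14 UMIs, 220 barcodes) and 0.110 (46 UMIs, 418 barcodes) UMIs of the gene per barcode. In that window cryopreserved T or NK-like cells had 0.0571 (0.00692 to 0.206) and SMC-like cells 0.0541 (0.00655 to 0.195), from 2 UMIs each. Both intervals overlapped that of fibroblast-like cells (0.0806 to 0.147). The exact upper bounds of cryopreserved epidermal stem-like (0.0149) and differentiated keratinocyte-like cells (0.0476) lay below it. In the fresh library the fibroblast-like interval in that window (0.0348 to 0.107) overlapped those of all other named classes. Fresh epidermal stem-like cells, for example, reached up to 0.0688, so the fibroblast excess was not resolved there.

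HBM was too rare for an order of classes. Its 5 fresh UMIs below the limit lay in epidermal stem-like (2) and T or NK-like cells (2) and in the class of Langerhans or other dendritic-like cells (1), and its 8 cryopreserved UMIs in epidermal stem-like (5), T or NK-like (2) and mast-like cells (1). It had 0 UMIs in 1344 fresh and 1467 cryopreserved fibroblast-like barcodes, which allows up to 0.00223 and 0.00204 per barcode. Its ratio to HBB was 0.00912 in the 2 barcodes above the limit (0.00726 to 0.0113), and 0.000566 (0.000184 to 0.00132) and 0.00115 (0.000496 to 0.00227) below it.

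Of 16 other globin names looked up, 4 are listed. HBQ1 (hemoglobin subunit theta-1) had 512 fresh and 505 cryopreserved UMIs below the limit and 1 above it, and it shared the fibroblast pattern, with 401 (78.3%) and 394 (78.0%) of these UMIs in fibroblast-like cells. Its level was 0.298 and 0.269 UMIs per fibroblast-like barcode, and differentiated keratinocyte-like cells had 2 and 1 UMIs in all. In RefSeq 834 bases of HBQ1 lie on exons of NPRL3, which is read from the opposite strand and stood at 0.367 and 0.226 UMIs per fibroblast-like barcode and 0.277 and 0.190 in differentiated keratinocyte-like cells. The part of that overlap in the HBQ1 counts was not tested. HBZ, the embryonic alpha-type gene, had 83 and 85 UMIs, of which 40 and 30 lay in fibroblast-like cells. Its level per barcode was highest in differentiated keratinocyte-like cells (0.0536 and 0.0453, from 12 and 15 UMIs). Their intervals (0.0277 to 0.0936 and 0.0254 to 0.0747) overlapped those of epidermal stem-like and fibroblast-like cells in both libraries. Per 10000 UMIs of a class, cryopreserved mast-like cells were higher, at 0.0885 from 3 UMIs against 0.0350. HBE1 and NGB had 1 UMI each in both libraries together.

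For a set of transcripts whose main source in skin is known, the fibrillar collagen genes COL1A1, COL1A2 and COL3A1 were summed. Fibroblast-like cells had a median of 970.5 of these UMIs per fresh barcode, and differentiated keratinocyte-like cells a median of 4, T or NK-like cells 2 and mast-like cells 1. The cryopreserved medians were 741, 2, 1 and 0.5. Median HBB in the same classes was 1, 3, 1 and 0 in the fresh library and 1, 2, 1 and 0 in the cryopreserved library. Collagen medians were higher in differentiated keratinocyte-like than in mast-like cells. Median depths of these classes were 20796.5 and 2621.5 UMIs in the fresh and 12142 and 1773.5 in the cryopreserved library, and the part of depth was not tested. Over all classes the collagen medians did not run in the order of HBB. The source of collagen UMIs outside fibroblast-like cells was not tested. SMC-like cells had medians of 10 (fresh) and 7 (cryopreserved), above differentiated keratinocyte-like cells, beside a median of 1 HBB UMI in each library. CD163/CD209 myeloid-like and epidermal stem-like cells both had 3 and 2, where median HBB was 1 and 1 against 3 and 2. Langerhans or other dendritic-like, endothelial-like and lymphatic-like cells had 3, 2 and 2 in the fresh and 1 each in the cryopreserved library.

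Between the libraries, HBB took nearly the same share of UMIs over all barcodes below the limit, and this sum hid opposite differences. It stood at 165.7 CPM in the fresh and 164.8 CPM in the cryopreserved library over all of them. Over the barcodes of named classes it was higher after cryopreservation, at 129.1 and 152.5 CPM (1.18 times, 1.14 to 1.22). Over the unnamed barcodes it was lower, at 525 and 346 CPM (0.660 times, 0.611 to 0.711), and these were 1042 fresh and 523 cryopreserved barcodes. With edgeR's TMM scaling and a pseudocount of 0.5 UMIs, HBB had a log2 ratio of CPM (cryopreserved to fresh) of -0.00156, at the middle of all genes (49.2% were lower). ENSSSCG00000007978 had a log2 ratio of 0.48, from 3.25 to 4.50 CPM, with 92.3% of genes lower. HBM, with 13 UMIs, did not reach the minimum of 200 UMIs for this comparison. Of 12355 genes compared, 0.874% were 2-fold or more higher and 0.259% 2-fold or more lower in the cryopreserved library, 1.13% in all, and 0 of the 2 members that passed the minimum were. The outcome rested on the 2 barcodes above the limit: with them in, HBB fell by 1.02 and ENSSSCG00000007978 by 4.74 on the log2 scale, and both then lay past 2-fold.

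Over all barcodes below the limit, HBB per barcode was lower in the cryopreserved library by about as much as mean UMIs per barcode. Most classes differed from this. The ratio of HBB per barcode, cryopreserved over fresh, was 0.710 (0.688 to 0.732), and per UMI it was 0.994 (0.963 to 1.03). The ratio of median depths was 0.787. By class, HBB per barcode was lower in 5 of 10 classes, with ratios of 0.585 in epidermal stem-like (0.548 to 0.625), 0.599 in endothelial-like, 0.626 in differentiated keratinocyte-like, 0.683 in lymphatic-like and 0.810 in fibroblast-like cells. In the other 5 classes the interval held 1, with ratios from 0.876 in Langerhans or other dendritic-like to 1.30 in mast-like cells. Median depth fell in all 10 classes, with ratios from 0.552 in lymphatic-like to 0.857 in CD163/CD209 myeloid-like cells. Per UMI of the class, HBB was higher in the cryopreserved library in 6 classes, from 1.198 times in fibroblast-like (1.12 to 1.28) to 1.58 times in SMC-like cells (1.36 to 1.85). In the other 4 the interval held 1. In epidermal stem-like cells the ratio was 0.990 (0.927 to 1.06), with the fresh barcode of 114 HBB UMIs kept in. Between barcodes of 8000 to 12000 UMIs in each library, the overall ratio for the 3 genes together was 1.04, but the classes were mixed differently there, with keratinocyte classes at 14.0% of 649 fresh and 33.6% of 1085 cryopreserved barcodes. Within classes of that window, HBB was 0.848 times as high in cryopreserved epidermal stem-like cells (0.717 to 1.005), 0.710 times in differentiated keratinocyte-like (0.472 to 1.11) and 0.957 times in fibroblast-like cells (0.814 to 1.13). T or NK-like cells were the class whose interval left out 1, at 1.505 (1.02 to 2.24, 28 fresh and 35 cryopreserved barcodes). That bound is close to 1 in an interval of counting error only.

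Genes around hemoglobin were compared on the same scale. Of the erythroid list, 10 genes reached 200 UMIs below the limit and 0 lay 2-fold or more apart, with a median log2 ratio of 0.11, where the median over all genes was 0.0041. Of the heme synthesis genes 8 reached it and 0 lay 2-fold apart, with a median of 0.12. Of 8 clearance genes, HMOX1, the stress-inducible heme oxygenase, was 2-fold or more higher in the cryopreserved library, where 0.874% of all genes were. It went from 49.97 to 101.3 CPM, a log2 ratio of 1.03. FTL went from 933 to 1553 CPM and CD163, the macrophage receptor for haptoglobin-bound hemoglobin, from 15.9 to 21.2 CPM, both short of 2-fold. BLVRB and SLC48A1 had log2 ratios of 0.40 and 0.33, and BLVRA was nearly level at 0.0020. SLC40A1 and FLVCR1 were lower, at -0.26 and -0.25. Immune classes made up 12.3% of fresh and 18.4% of cryopreserved barcodes, with 180 and 309 CD163/CD209 myeloid-like barcodes, and their part in these sums was not tested. Of 2 neutrophil genes with 200 UMIs, S100A12, a calcium-binding protein of myeloid cells, was higher with a log2 ratio of 1.49, and ELANE was lower at -0.53. Of the platelet genes ITGA2B, an integrin subunit, was the only 1 to reach 200 UMIs, at -0.22. These values describe 2 libraries.

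The genes most like globin were sought over the 20 combinations of class and library, by Pearson's r of log2 UMIs per barcode among 7757 genes with no zero. ENSSSCG00000003165 (r = 0.97), PAIP2, RPL38, CACTIN and MINK1 (each r = 0.96) came first. These points share libraries and depth, and depth differs between them, so the values are a description of this set.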

How the data were processed

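The authors deposited raw UMI counts per gene and barcode for 1 fresh and 1 cryopreserved library. The submitters' processing notes name Cell Ranger 4.0.0, STAR 2.5.1b and Sscrofa11.1. Such counts keep only reads assigned to a single gene, so reads fitting several globin loci may be lost.

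All barcodes were integrated and clustered with Seurat 5.3.0 (R 4.3.3, 2000 variable genes without the 3 globin genes, 30 dimensions, resolution 0.8). Clusters were named from marker lists by the share of each list detected. That scoring, and a rule leaving clusters of low depth unnamed, were set after a first output was seen. Scrublet in scanpy 1.11.5 (Python 3.11.15) marked 49 fresh (1.12%) and 66 cryopreserved barcodes (1.36%), which were kept. UMIs were summed by class. Exact Poisson, Clopper-Pearson and conditional binomial intervals (scipy 1.17.1) were used at 95%, and the limit for a count of 0 was 3 counts. UMIs are molecules, and cells of 1 library are not replicates. Library log2 ratios of CPM used edgeR 4.0.16 TMM factors, a pseudocount of 0.5 and at least 200 UMIs, with a fixed 2-fold size and no test. DESeq2 1.42.0 size factors were an alternative. Scripts were tested on simulated data.

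Members and lists were chosen with earlier results of these data known. The genes named were the members, other listed globins, members of the lists with at least 50 UMIs, genes with at least 50 UMIs above the limit and the 5 most like globin. AHSP, ALAS2, SLC4A1, HBE1, NGB, NPRL3, the collagens, the markers of the dendritic class and the leading genes of the dividing cluster fall outside that rule and were named after their values were seen.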

Additional observations from a re-analysis of the deposited data

How the results depend on the processing

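Each condition had 1 library, so no test was possible and every ratio describes this pair of libraries. No paired analysis was possible because each condition has a single library and no result comes from a test. Of 260 alternative values of globin per class, 222 stayed within counting error and 38 moved (23 lower, 15 higher). The values under globin limits of 1%, 5% and 20% and under no limit, 20 for each, could not move. The barcodes that these limits add or drop lay in an unnamed cluster, so they say nothing about stability. At 8000 to 12000 UMIs 13 of 20 values moved, within the study's maxima 9 of 20, and at 2 to 5% mitochondrial UMIs 7 of 20. The windows of 8000 to 12000 UMIs and of 2 to 5% mitochondrial UMIs, and leaving out the 1 fresh barcode with most globin, were added after seeing the data. The cause of the moves was not tested, except where the alternative itself removes depth or barcodes.

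Globin UMIs per fresh barcode, 2.06 in the report, were 5.59 with no globin limit, 1.54 within the study's maxima, 1.95 without the 5 barcodes with most globin of each class and 1.52 at 8000 to 12000 UMIs. Per cryopreserved barcode, 1.47 became 1.37, 1.41 and 1.58 under the last 3 of these and 1.61 at 2 to 5% mitochondrial UMIs. The ratio, cryopreserved over fresh, was 0.715. It became 0.263 with no limit, 0.890 within the maxima, 0.783 at 2 to 5% mitochondrial UMIs and 0.765 with classes weighted equally. At 8000 to 12000 UMIs, where the class mix also differed, it was 1.04, close to 1 and given without an interval, so no direction is read from it. The highest over the lowest class was 11.2 in the fresh library, 18.4 without the 5 top barcodes, 2.97 at 8000 to 12000 UMIs and 2.16 per 10000 UMIs. For the cryopreserved library it was 5.19, 7.72 at 2 to 5% mitochondrial UMIs and 2.06 per 10000 UMIs.

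A limit of 1% put 4 fresh barcodes above it in place of 2. The share of barcodes with a globin UMI, 74.3% fresh and 67.7% cryopreserved, was 17.7% and 11.5% thinned to 500 UMIs, 20.7% and 18.0% at 1000, and 27.3% and 30% at 2000. The log2 ratio of HBB was 0.29 within the maxima and -1.02 with no globin limit, where ENSSSCG00000007978 was at -4.74. Genes 2-fold or more apart numbered 140, and 396 with a minimum of 50 UMIs and 4282 among all genes with a UMI.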
